A study of Mus musculus with 9 samples.

Results

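The 10 genes described here encode receptors for neuropeptide Y (Npy1r, Npy2r, Npy5r), for opioid peptides (Oprk1, Oprd1, Oprm1, and Oprl1, the nociceptin receptor) and for somatostatin (Sstr1, Sstr2, Sstr4). They were taken by symbol, and all 10 of 10 were found among the 24015 rows of both tables that the authors deposited. RNA came from the dentate gyrus, the gate of the hippocampus, dissected from C57BL/6 mice aged 8 weeks, with 1 library per mouse. The groups are named E0, E1 and E4 and hold 3 mice each. The labels give neither an agent nor a unit for the number after E, and name no genotype or transgene. As background from the published study, E0 mice were unstimulated and E1 and E4 mice were taken 1 h and 4 h after electroconvulsive stimulation, which makes the granule neurons of the dentate gyrus fire together. The comparisons ask which transcripts had changed at each time.

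All of these receptors couple mainly to inhibitory G proteins of the Gi/o family. When a peptide binds, the G protein lowers cyclic AMP, opens inward rectifier potassium channels and closes presynaptic calcium channels, so the receptors act as brakes on neurons and on their terminals. In the dentate gyrus the ligands are released by local interneurons (neuropeptide Y and somatostatin) and by the granule neurons themselves (dynorphin and enkephalin), and neuropeptide Y and dynorphin are known for restraining seizures there.

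The tables list a mean normalised count over 6 libraries, the log2 fold change with its standard error (SE) and the adjusted p of every gene, and no value per mouse. The whole reads of each library were therefore recovered from the arithmetic of the tables. Every mean count is a sum of whole reads times 6 known steps, both tables contain the same 3 E0 libraries, and the reads found must also return the log2 fold changes of both tables within 2e-05. For each of the 10 receptors exactly 1 set of 9 whole numbers met these conditions. In a check on 224 other genes, all 224 returned both log2 fold changes within that tolerance. The check genes had 1 candidate set from the mean counts alone. For Npy1r the mean counts left 359 candidates, for Npy2r 123, for Sstr2 68, for Sstr1 24 and for Oprl1 2. Other genes with values per library below also had several, among them Penk with 13, Npy 16, Sstr3 99, Pdyn 481 and Sst 545. Of the interneuron markers summed below, Gad2 had 358, Cck 7497 and Reln 10106. In each case the log2 fold changes then picked 1, a choice that this check does not cover. Values per library below are the recovered reads divided by the library's size factor, on 1 scale for all 9 libraries, and are called normalised counts. Libraries could not be tied to the replicate numbers of the labels and are listed within a group from the most to the least deeply sequenced.

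Depth differed between groups, from about 6140000 to 10960000 reads in genes for E0, 1940000 to 4760000 for E1 and 10020000 to 13550000 for E4, so the values of E1 are the least precise. Fos, an early marker of neuronal firing, stood at no more than 52.1 normalised counts in any E0 library, at 949 to 1292 in E1 and at no more than 71.0 in E4, so the E1 libraries stand apart as labelled. Granule neuron markers were read at different levels. In the authors' deposited table for E4, Pdzd2 had a mean count of 4795, Dsp one of 2931, C1ql3 one of 1797 and Tdo2 one of 266.8. These means cover the E0 and E4 libraries together. Choroid plexus markers were mostly low, with mean counts of 30.92 for Ttr and 6.554 for Aqp1 in the same table. Kl was the exception at 305.1, above Tdo2, which was itself lowered in E4 (log2 fold change -4.00 ± 0.18). In the authors' deposited table for E1, Kl at 133.6 lay below Tdo2 at 166.8.

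Genes count as called here at an adjusted p below 0.05 in the authors' deposited table. Of the 10 receptors, 4 were called in E1 (Npy2r, Npy5r and Sstr1 lowered, Sstr4 raised) and 6 were not. Of all 15660 genes tested in E1, 35.5% were called, 15.0% lowered and 20.6% raised, so a count of 4 in 10 is near the background. In E4 adjusted p-values exist for 9 of the 10, and 8 of these 9 were called, 6 lowered and 2 raised (Sstr2 and Oprd1), where 39.0% of 14455 genes were called, 18.3% lowered and 20.7% raised. The median log2 fold change of the receptors tested was -0.06 in E1 and -0.81 in E4, against 0.017 and -0.007 over all genes tested. Both comparisons share the E0 libraries.

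**Figure D1:**
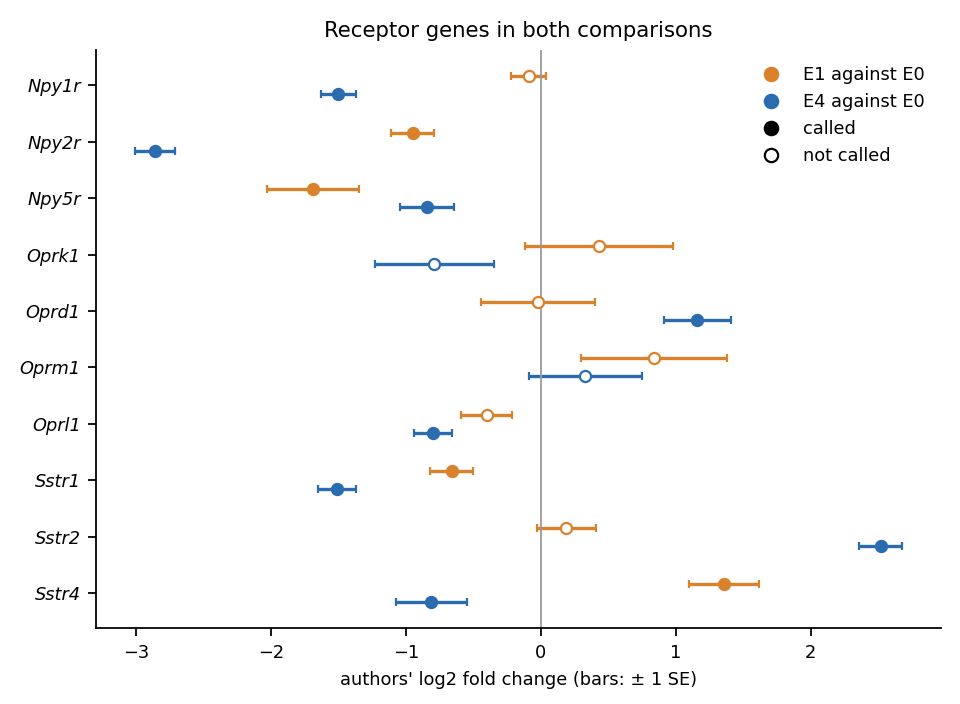
Log2 fold change (x axis) of the 10 receptor genes from the authors' deposited tables, E1 against E0 in orange and E4 against E0 in blue, with bars of 1 SE and filled points for called genes. Npy2r at -2.86 and Sstr2 at 2.52 in E4 lie farthest from 0, and Sstr4 lies at 1.36 in E1 and -0.81 in E4.

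The receptors for neuropeptide Y were all lowered in E4, and their values in E1 differed. Npy2r, a mainly presynaptic receptor that curbs transmitter release, had normalised counts of 1186.3, 1054.8 and 1069.4 in E0. It had 438.2, 686.9 and 571.6 in E1 and 171.5, 100.4 and 155.6 in E4. The groups did not overlap, and the level descended at each step, to a mean 7.74-fold below that of E0 in E4. The authors' deposited table for E1 gives -0.95 ± 0.16 on the log2 scale (SE, adjusted p = 1.39e-08) and the authors' deposited table for E4 gives -2.86 ± 0.15 (adjusted p = 1.51e-83), the largest change of any of the 10 receptors.

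Npy1r, the mainly postsynaptic Y1 receptor, stood at 782.6, 724.5 and 768.2 normalised counts in E0 and at 703.9, 715.7 and 720.8 in E1. The E1 libraries lay just below those of E0, and the log2 fold change of -0.09 ± 0.13 (adjusted p = 0.636) in the authors' deposited table was not called. In E4 Npy1r stood at 261.5, 223.5 and 303.4, below every E0 and E1 library, with -1.50 ± 0.13 (adjusted p = 6.30e-31) in the authors' deposited table. Npy1r was thus called lowered in E4 and not in E1, whereas Npy2r was called lowered at both times.

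Npy5r, which encodes the Y5 receptor, took another course, with the lowest level in E1. Its normalised counts were 125.4, 132.1 and 143.5 in E0, then 20.3, 51.7 and 39.8 in E1, and 82.2, 61.6 and 70.5 in E4. No 2 groups overlapped, and E4 lay between the other two. The authors' deposited table for E1 gives -1.69 ± 0.34 (adjusted p = 3.86e-06) on the log2 scale, and the authors' deposited table for E4 gives -0.84 ± 0.20 (adjusted p = 1.53e-04). The E1 value rests on few reads, 10, 18 and 8 per library, against 91 to 142 in E0. The difference of 0.85 ± 0.39 between E4 and E1 missed the threshold with independent errors (adjusted p = 0.0744). It passed with errors assumed to correlate at 0.5 through the shared E0 libraries (adjusted p = 0.00879).

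**Figure D2:**
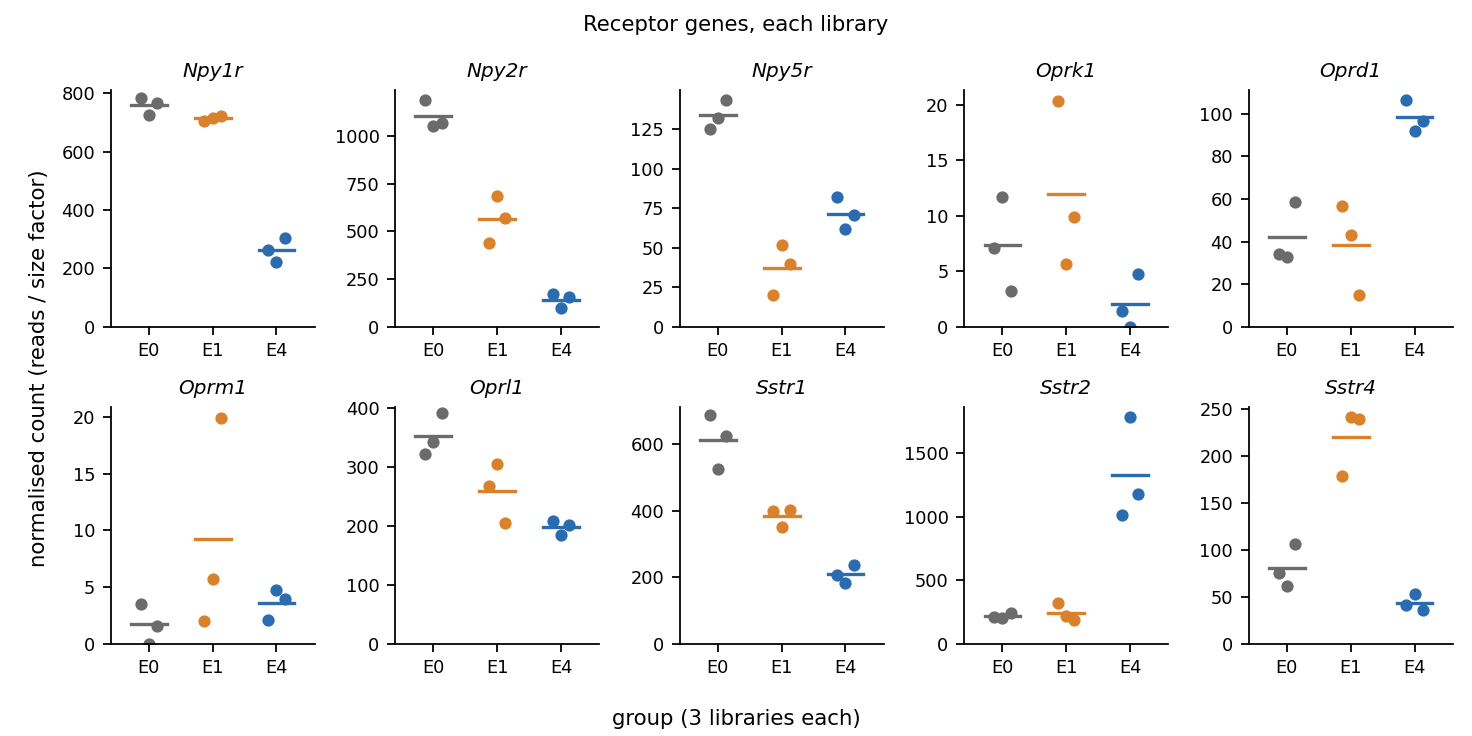
Normalised count (y axis, reads divided by size factor, from 0) of each receptor gene in the 3 libraries of E0, E1 and E4, with 1 point per library and a line at the group mean. Npy2r and Sstr1 descend from E0 over E1 to E4, Npy5r is lowest and Sstr4 highest in E1, and Sstr2 and Oprd1 stand highest in E4.

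Npy1r and Npy5r are neighbours on chromosome 8, on opposite strands, with 0 other RefSeq genes between or across them (assembly GRCm38.p6). Because their reads come from the same library, their ratio needs no size factor. Npy5r reads per Npy1r read were 0.160, 0.182 and 0.187 in E0, then 0.0288, 0.0723 and 0.0552 in E1, and 0.314, 0.275 and 0.232 in E4. No groups overlapped in this ratio, whose geometric mean was 3.62-fold lower in E1 than in E0 and 5.59-fold higher in E4 than in E1. With 3 libraries against 3, an exact two-sided permutation test cannot go below p = 0.10, which is what it gave for both (adjusted p = 0.11 over 9 such ratio tests of 3 pairs of receptors, chosen after the values were seen). Npy2r reads per Npy1r read were 1.39 to 1.52 in E0, 0.622 to 0.960 in E1 and 0.449 to 0.656 in E4, so E1 lay below E0 (exact p = 0.10, adjusted 0.11) and overlapped with E4 (exact p = 0.20, adjusted 0.20).

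**Figure D3:**
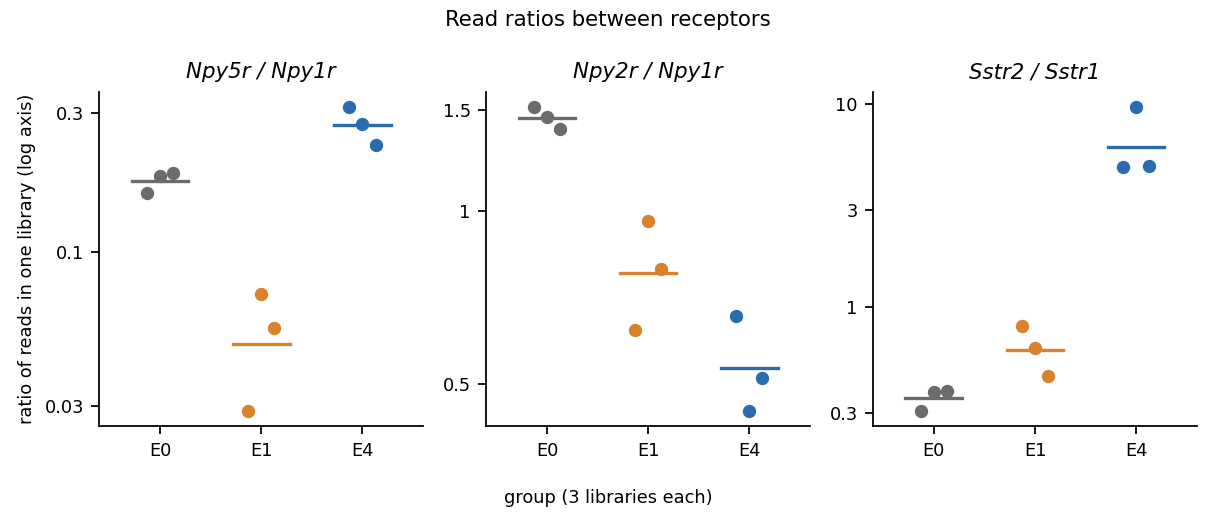
Reads of a receptor gene per read of another in the same library (y axis, log axis), with 1 point per library and a line at the geometric mean of the group. Npy5r over Npy1r is lowest in E1 (0.0288 to 0.0723) and highest in E4 (0.232 to 0.314), and Sstr2 over Sstr1 moves from 0.306 to 0.382 in E0 to 4.89 to 9.70 in E4.

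The 250 bases before the start of these 3 genes are shown because the genes are lowered at different times. They are from RefSeq's promoters (GRCm38.p6, gene strand, 5′ to 3′), for which 8 of the 10 receptors had an entry. They were searched on both strands for 4 motifs of activity-regulated factors: the cyclic AMP response element CRE (TGACGTCA), its shorter core (TGACG, which every full CRE contains), the AP-1 site (TGANTCA) and the EGR site (GCGNGGGCG). Capitals mark a match.
Npy1r, chr8:66697172-66697421 (+ strand): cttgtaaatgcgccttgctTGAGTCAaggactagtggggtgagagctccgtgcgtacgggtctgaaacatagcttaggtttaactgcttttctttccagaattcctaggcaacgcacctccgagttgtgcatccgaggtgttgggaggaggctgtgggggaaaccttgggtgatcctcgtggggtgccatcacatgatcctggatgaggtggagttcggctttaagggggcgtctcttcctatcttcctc
Npy2r, chr3:82548086-82548335 (- strand): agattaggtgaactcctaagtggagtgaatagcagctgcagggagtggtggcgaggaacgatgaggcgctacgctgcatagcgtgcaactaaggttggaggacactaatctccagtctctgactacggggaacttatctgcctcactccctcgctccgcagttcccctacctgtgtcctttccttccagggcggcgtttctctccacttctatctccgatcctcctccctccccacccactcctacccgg
Npy5r, chr8:66688095-66688344 (- strand): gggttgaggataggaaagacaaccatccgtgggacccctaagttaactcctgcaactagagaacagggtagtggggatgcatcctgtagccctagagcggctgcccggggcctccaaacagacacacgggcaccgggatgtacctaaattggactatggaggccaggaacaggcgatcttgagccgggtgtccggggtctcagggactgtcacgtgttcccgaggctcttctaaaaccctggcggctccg
Npy1r held an AP-1 match at bases -231 to -225 from the start, and 6.75% of all 32851 promoters hold one in this window. The windows of Npy2r and Npy5r held none of the 4 motifs. A match is a run of letters only, and binding was not measured here.

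For Npy2r, the gene with the largest change in E4, the genes with the most similar pair of log2 fold changes were sought among the 9818 whose mean counts reached 50 in both tables. The closest outside the 10 receptors was Fam84b, at a distance of 0.30 on the log2 scale, with -0.77 ± 0.19 for E1 and -2.63 ± 0.15 for E4 in the authors' deposited tables. Scnn1a, a subunit of the epithelial sodium channel, followed at a distance of 0.63 and Fat4, an atypical cadherin, at 0.72. Their log2 fold changes in the authors' deposited table for E4 were -2.42 ± 0.20 for Scnn1a and -2.18 ± 0.14 for Fat4.

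The somatostatin receptors moved in opposite directions in E4. Sstr2 had normalised counts of 210.2, 200.3 and 238.2 in E0 and 322.5, 218.4 and 183.9 in E1, and these groups overlapped. In E4 it reached 1012.5, 1782.5 and 1175.9, above every other library, a mean 6.12-fold over E0. The log2 fold change in the authors' deposited tables was 0.19 ± 0.22 for E1 (adjusted p = 0.553) and 2.52 ± 0.16 for E4 (adjusted p = 1.08e-50). Sstr2 lies on the opposite strand within the span of Slc39a11, a zinc transporter gene, and whether the counting used strand is not given. Slc39a11 itself was lowered in E4, at -1.08 ± 0.16 (adjusted p = 6.03e-10) in the authors' deposited table.

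Sstr1 descended in steps like Npy2r, with a smaller change. It stood at 686.3, 526.3 and 623.0 normalised counts in E0, at 399.6, 350.7 and 402.6 in E1 and at 207.2, 183.7 and 236.7 in E4, and no groups overlapped. The authors' deposited table for E1 gives -0.66 ± 0.16 (adjusted p = 2.81e-04) and the authors' deposited table for E4 gives -1.51 ± 0.14 (adjusted p = 1.37e-25). Set against each other within a library, Sstr2 had 0.306, 0.381 and 0.382 reads per Sstr1 read in E0, then 0.807, 0.623 and 0.457 in E1, and 4.89, 9.70 and 4.97 in E4. The ratio was thus 17.4-fold higher in E4 than in E0 by geometric mean, without overlap (exact permutation p = 0.10, the smallest possible, adjusted 0.11).

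Sstr4 was the receptor called in opposite directions at both times. Its normalised counts were 75.1, 61.8 and 105.7 in E0, then 178.5, 241.4 and 238.6 in E1, and 40.7, 53.0 and 35.8 in E4. Every E1 library lay above E0 and every E4 library below it. The authors' deposited table for E1 gives 1.36 ± 0.26 (adjusted p = 1.17e-06) and the authors' deposited table for E4 gives -0.81 ± 0.26 (adjusted p = 0.00645). The E4 call rested on the E0 library of lowest depth: without it the refitted log2 fold change was -0.59 (unadjusted p = 0.0347), past the largest p among calls of that table, 0.0195.

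Sstr3, the remaining somatostatin receptor with an adjusted p, is no member of the 10 but resembled Sstr2. It had 239.4, 282.3 and 324.9 normalised counts in E0, 338.8, 316.2 and 218.7 in E1 and 807.5, 1377.1 and 890.9 in E4. In the authors' deposited table for E1 its log2 fold change was 0.08 ± 0.20 (adjusted p = 0.810), and 1.80 ± 0.17 (adjusted p = 2.10e-25) in the authors' deposited table for E4. Sstr2 and Sstr3 both had their highest value in the second E4 library by depth. The same library had the lowest E4 value of Npy1r, Npy2r, Npy5r, Oprd1, Oprl1, Sstr1 and Oprk1, the last with 0 reads. Sstr4 and Oprm1 had their highest E4 value in it. The share of all genes lowest in this library is not known, because only listed genes were recovered. Sstr5 was hardly read, at mean counts of 0.7157 (E1) and 0.4799 (E4) and with no adjusted p in the authors' deposited tables.

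The promoter of Sstr2 is shown because this was the most strongly raised receptor and because 2 different motifs lie close together in it.
Sstr2, chr11:113619077-113619326 (+ strand): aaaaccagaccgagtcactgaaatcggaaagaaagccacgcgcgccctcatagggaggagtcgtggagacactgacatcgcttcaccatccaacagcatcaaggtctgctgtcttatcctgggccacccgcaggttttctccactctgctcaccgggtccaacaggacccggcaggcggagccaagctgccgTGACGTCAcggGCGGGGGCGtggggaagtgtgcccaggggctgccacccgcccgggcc
The full CRE stands at bases -58 to -51 and the EGR match GCGGGGGCG at -47 to -39. A full CRE occurs in this window in 1.55% of all promoters, the core in 17.8% and an EGR match in 4.70%. Of the 12 promoters listed for the 8 receptors with an entry, 2 held any of the 4 motifs, those of Sstr2 and Npy1r. In Sstr3 the core stood at -9 to -5 in the promoter at chr15:78544346-78544595 and was absent from that at chr15:78541407-78541656. Sstr4 held no match.

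Among the opioid receptors the 2 with the most reads moved in opposite directions in E4. Oprd1, the delta receptor, the main target of enkephalins, stood at 34.4, 33.0 and 58.4 normalised counts in E0 and at 56.8, 43.1 and 14.9 in E1, which overlapped. In E4 it stood at 106.5, 91.9 and 96.6, above all other libraries and 2.34-fold over E0 by the means. Its log2 fold change in the authors' deposited tables was -0.02 ± 0.42 for E1 (adjusted p = 0.975) and 1.16 ± 0.25 for E4 (adjusted p = 1.61e-05). The E1 value rests on few reads, 28, 15 and 3 per library, against 31 to 39 in E0.

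Oprl1, the receptor for nociceptin, had 322.4, 342.0 and 391.2 normalised counts in E0, 267.8, 304.7 and 203.8 in E1 and 207.9, 184.7 and 201.9 in E4. Both later groups lay below E0 and overlapped each other. The change was not called in E1, at -0.40 ± 0.19 (adjusted p = 0.0840) in the authors' deposited table, and was called in E4, at -0.80 ± 0.14 (adjusted p = 1.34e-07) in the authors' deposited table.

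Oprk1 and Oprm1, the kappa and mu receptors, were near the limit of detection. Oprk1 had 8, 11 and 2 reads in the E0 libraries, 10, 2 and 2 in E1 and 2, 0 and 5 in E4. Oprm1 had 4, 0 and 1 reads in E0, 1, 2 and 4 in E1 and 3, 5 and 4 in E4. With so few reads no change was detectable at this depth: Oprk1 stood in the authors' deposited tables at 0.43 ± 0.55 for E1 (adjusted p = 0.596) and -0.79 ± 0.44 for E4 (adjusted p = 0.151). For Oprm1 the authors' deposited table of E1 gives 0.84 ± 0.54 (adjusted p = 0.230), and it has no adjusted p in that of E4. These shrunken estimates understate the raw ratios of the means, which for Oprm1 in E1 came to 2.44 on the log2 scale, carried by 4 reads in the shallowest library.

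Levels of different genes were compared per 1000 exon bases (union of exons, GENCODE M21). In E0 Npy2r stood highest, at 312 to 351 normalised counts per 1000 bases, and overlapped with Sstr1 at 257 to 335. Npy1r followed at 210 to 227, clear of both neighbours in the order. Sstr2 at 93.5 to 111 and Oprl1 at 85.9 to 104 overlapped, as did Sstr4 at 43.4 to 74.2 and Npy5r at 49.1 to 56.2. Oprd1 was far lower at 8.21 to 14.5, and Oprk1 and Oprm1 reached at most 1.28 and 0.440. In E1 Npy1r led at 204 to 209, and Sstr1, Npy2r, Sstr4 and Sstr2 formed a chain in which each overlapped with the next. In E4 Sstr2 led at 472 to 832, followed by Sstr1 at 89.8 to 116 and Npy1r at 64.7 to 87.8, with no overlap among these. Npy2r stood in E4 at 29.7 to 50.7, overlapping with Oprl1 above it and Sstr4 below it. Npy5r at 24.1 to 32.2 and Oprd1 at 22.8 to 26.5 also overlapped in E4.

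**Figure D4:**
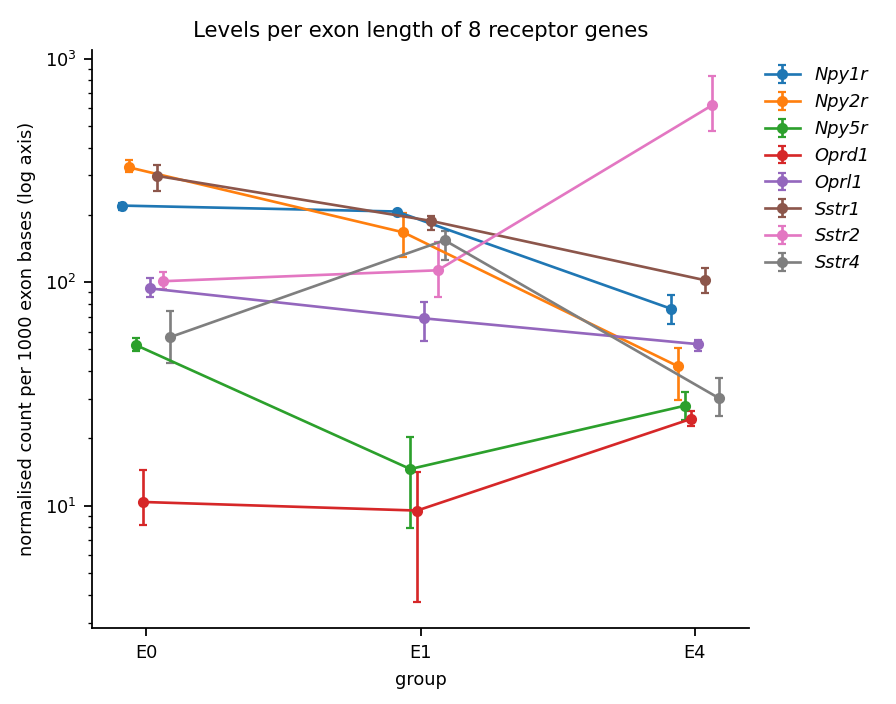
Normalised count per 1000 exon bases (y axis, log axis) of the 8 receptor genes above the limit of detection in E0, E1 and E4, with points at the mean and bars from the lowest to the highest of 3 libraries. Sstr2 moves from 101 in E0 to 618 in E4 by the means, while Npy2r, the highest in E0 at 326, stands at 42.1 in E4.

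Whether E4 differed from E1 was tested directly for the 8 receptors whose mean counts reached 10 in both tables, as the difference of the log2 fold changes over its SE, adjusted over 12769 genes (two-sided normal p, Benjamini-Hochberg). Of these genes 36.7% differed, 17.7% higher in E4 and 19.0% lower, and 6 of the 8 receptors did. Sstr2 was higher in E4 by 2.33 ± 0.28 (adjusted p = 1.34e-15) and Oprd1 by 1.19 ± 0.48 (adjusted p = 0.0408). Lower in E4 were Sstr4 at -2.17 ± 0.36 (adjusted p = 4.02e-08), Npy2r at -1.91 ± 0.21 (adjusted p = 2.54e-17), Npy1r at -1.41 ± 0.18 (adjusted p = 8.71e-14) and Sstr1 at -0.85 ± 0.21 (adjusted p = 4.14e-04). Npy5r and Oprl1 (-0.40 ± 0.24, adjusted p = 0.184) missed the threshold in this form, which treats the errors as independent although both comparisons share E0. With errors correlated at 0.5, both passed it (adjusted p = 0.00879 for Npy5r and 0.0398 for Oprl1). The 0.5 was assumed, not estimated. It lowers the SE of the difference for every gene, and the share of all genes differing under it is not given here. The call of Oprd1 was lost without any 1 of the 3 E0 libraries, the shallowest E1 library or the deepest E4 library, with refitted differences of 0.94 to 1.16 and unadjusted p-values of 0.0254 to 0.0618.

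The precursors of the ligands were changed about as often as genes in general. Of the 9 on the list, Pyy and Ppy were listed at 0 in both tables, and of the 7 tested 2 were raised, 1 lowered and 4 not called in each comparison, beside 35.5% of all genes called in E1 and 39.0% in E4. Npy, which encodes neuropeptide Y, rose at both times. It stood at 153.7, 206.7 and 130.9 normalised counts in E0, 430.1, 313.3 and 303.2 in E1 and 435.2, 674.4 and 867.7 in E4, with no overlap. The authors' deposited table for E1 gives 1.05 ± 0.22 (adjusted p = 1.40e-05) and the authors' deposited table for E4 gives 1.74 ± 0.30 (adjusted p = 6.68e-08).

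The precursor of enkephalin, Penk, stood at 259.7, 268.5 and 230.3 normalised counts in E0, overlapped with E0 in E1, and reached 433.7, 578.7 and 566.2 in E4, at 1.02 ± 0.14 (adjusted p = 7.88e-12) in the authors' deposited table. Penk and Oprd1, a ligand precursor and its main receptor, were thus both called raised in E4 and not in E1. For Oprd1 the E1 estimate rests on few reads, so a change there could have been missed. Pdyn, the dynorphin precursor, was lowered at both times, from 841.8, 716.0 and 828.1 in E0 to 492.9, 342.0 and 362.9 in E1 and 364.4, 552.2 and 466.7 in E4. Its log2 fold change in the authors' deposited tables was -0.95 ± 0.16 for E1 (adjusted p = 6.75e-08) and -0.77 ± 0.14 for E4 (adjusted p = 2.10e-07).

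Sst, the somatostatin precursor, was raised in E1 at 0.51 ± 0.15 (adjusted p = 0.00410) in the authors' deposited table, with 904.8, 704.2 and 864.9 normalised counts against 493.8, 654.2 and 580.5 in E0. In E4 it had 278.0, 244.4 and 586.5, where 1 library lay within the E0 range and the change of -0.53 ± 0.34 (adjusted p = 0.228) in the authors' deposited table was not called. Pnoc, the nociceptin precursor, was not called in E1 at 0.75 ± 0.33 (adjusted p = 0.0618) in the authors' deposited table, and Cort and Pomc were called in neither comparison. Of the other family receptors, Npy4r and Npy6r were listed at 0 in both tables.

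**Figure D5:**
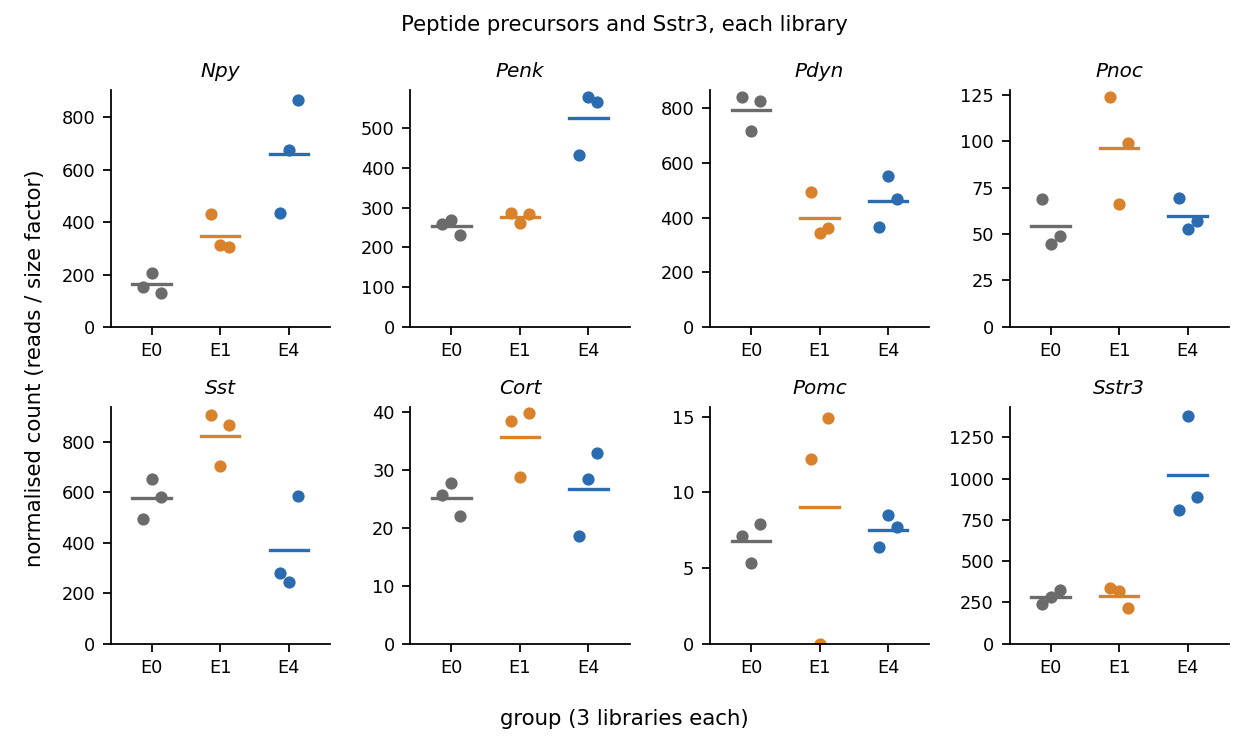
Normalised count (y axis, from 0) of 7 peptide precursor genes and of Sstr3 in the 3 libraries of E0, E1 and E4, with 1 point per library and a line at the group mean. Npy stands at 131 to 207 in E0 and 435 to 868 in E4, and Pdyn at 716 to 842 in E0 and 364 to 552 in E4.

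Markers of GABAergic interneurons, the cells that carry Sst and Npy at rest, were higher in E1. Of 18 such markers 11 were raised and 0 lowered in E1, with a median log2 fold change of 0.81. In E4 1 was raised and 2 lowered, with a median of -0.27. Of all genes tested, 20.6% were raised and 15.0% lowered in E1, and 20.7% and 18.3% in E4. These shares are the background for every list in this paragraph. None of the 18 was listed at 0. Summed over the 16 markers with recovered reads, the normalised counts were 3788 to 4404 in E0, 6984 to 7611 in E1 and 3548 to 3784 in E4. This moved with Sst, Npy and Sstr4 in E1, and its part in their values was not tested. Astrocyte markers were lowered in 12 of 16 cases in E1 (median -0.44) and in 4 of 16 in E4, and granule neuron markers in 9 of 15 in E1 and 6 of 15 in E4, with 4 and 6 raised. Other lists held called genes in E1 as well, and no departure from the background is read from their counts. Of 12 pyramidal neuron markers 5 were raised and 1 lowered (median 0.41), and of 10 mossy cell and hilar markers 3 were raised and 0 lowered (0.50). Of 10 endothelial markers 4 were raised and 1 lowered (0.73), and of 12 microglia markers 0 were raised and 4 lowered (-0.40). In E4 the medians of these lists were -0.29, -0.25, -0.02 and -0.04. The part of these lists in the values of the receptors was not tested either. In tissue RNA, fewer cells of a type and less RNA per cell cannot be told apart.

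Of the machinery behind the receptors, the 5 alpha subunits of the Gi/o family comprised 3 raised and 0 lowered in E1, and 1 raised and 1 lowered in E4. For this and the next lists the share called among all genes was 35.5% in E1 (20.6% raised, 15.0% lowered) and 39.0% in E4 (20.7% raised, 18.3% lowered), and nothing particular to a list is read from its count. Gnai1 was raised in E1 at 0.83 ± 0.12 and lowered in E4 at -0.46 ± 0.10 in the authors' deposited tables, and Gnao1, the most abundant in brain, was raised at 0.73 ± 0.11 and 0.29 ± 0.10 in the authors' deposited tables. Of 13 beta and gamma subunits tested 3 were raised and 4 lowered in E1, and 1 raised and 5 lowered in E4. The potassium channels that these subunits open split by subunit. Kcnj6 was raised in E4 at 0.93 ± 0.12 (adjusted p = 3.84e-14) in the authors' deposited table, and Kcnj9 was lowered in E1 at -0.63 ± 0.13 and in E4 at -0.63 ± 0.10 in the authors' deposited tables. The other two, Kcnj3 and Kcnj5, were called at neither time.

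Receptor kinases and arrestins, which switch an activated receptor off, comprised 2 raised and 2 lowered of 7 in E1, and 0 raised and 4 lowered in E4. Grk4, a receptor kinase gene, stood far apart from the rest of this list in E1, 57.0-fold raised at 5.83 ± 0.21 (adjusted p = 1.29e-162) in the authors' deposited table, where its mean count was 433.6. In E4 it stood at -0.25 ± 0.35 (adjusted p = 0.626) in the authors' deposited table. Arrb1, which encodes an arrestin, was lowered by a like size at both times, at -0.36 ± 0.09 in E1 and -0.36 ± 0.08 in E4 in the authors' deposited tables.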

How the data were processed

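Total RNA of 9 dentate gyri was sequenced, 1 library per mouse, and groups were read from the sample titles. The authors deposited 2 tables of comparisons (E1 and E4, each with E0), made with TopHat2 and DESeq2 on mm9 per the submitters' processing notes, with no versions. The sources used here do not give the counting program, the annotation or the strand setting. The tables do not name their baseline group, which was taken as E0 because both share its libraries. Per the file headers, the deposited signal is a mean over libraries of counts divided by size factors (named mean count). The deposited log2 values are a shrunken fold change and its SE, the deposited score is their quotient, and the deposited p-value comes with a Benjamini-Hochberg adjusted p. In the table for E1, 27 symbols had become dates and were left out of joins.

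Whole reads were recovered with Python 3.11.15 and SymPy 1.14.0 by lattice reduction, then refitted with a negative binomial model with a normal prior on the log2 fold change (SD 1.10 for E1 and 0.886 for E4, set on 74 genes). Of 300 genes searched in the check, 298 had 1 solution from the mean counts. The search was bounded around the group means, with narrower bounds tried where it did not finish. No set matched for Sstr5. Size factors, on the scale of the table for E4, were 0.634 to 1.132 for E0, 0.201 to 0.493 for E1 and 1.035 to 1.399 for E4. The recovery was chosen after seeing the data and tested on simulated data. Only listed genes were recovered, so no count test across genes was run and the authors' statistics remain the main test.

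The receptors and all gene lists were chosen with earlier results of these data known. Named were all 10 receptors, all ligand precursors and other family receptors, from further lists genes among the 4 with the smallest adjusted p in either table, and the 3 genes nearest to Npy2r. Slc39a11 was named for its overlap with Sstr2 and Fos as a check of the groups. Coordinates of promoters are those of GRCm38.p6, not mm9. The deposited p-values rest on 3 mice per group and on a modelled dispersion, not on the spread between these mice alone. Those for E4 against E1 are derived from the deposited fold changes and SEs.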

Additional observations from a re-analysis of the deposited data

Results flagged for a closer look

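The change from E1 to E4 differed from 0 by a test of the difference itself for 6 receptor genes. Of all 12769 genes in this test 36.7% differed. Lower in E4 were Npy1r at -1.41, Npy2r at -1.91, Sstr1 at -0.85 and Sstr4 at -2.17 on the log2 scale. Higher in E4 were Oprd1 at 1.19 and Sstr2 at 2.33. The call of Oprd1 lay near the threshold (adjusted p = 0.0408) and was lost when some single libraries were left out. Sstr4 is the only one of the 6 that was called in opposite directions against E0, raised in E1 and lowered in E4. Groups of 3 libraries are too small for a test of single outlying libraries.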

How the results depend on the processing

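Calls of receptors were recomputed with adjusted p thresholds of 0.01 and 0.1, with the adjustment over genes whose mean count reached 10 or over every gene with a p, after centring, after removing a trend on length and GC content of transcripts, and with a log2 fold change of at least 0.5. E1 gave 4 called under all of these but the threshold of 0.1, where Oprl1 made it 5, and E4 gave 8 under all of them. The number differing between E4 and E1 was 8 with errors assumed to correlate at 0.5 through the shared E0 libraries. For that setting no share of all genes is given. The number was 6 after centring, and 5 at a threshold of 0.01 and where mean counts had to reach 50, which leaves Oprd1 out. Leaving out each library in turn, chosen after seeing the data and made on recovered reads with the dispersion and size factors kept, gave 4 to 5 in E1, 7 to 8 in E4 and 5 to 7 for the difference. Of 346 recomputed values of single receptors, 333 stayed on the same side of the threshold, 7 lost the call, 6 gained it and 0 calls changed direction. The call of Sstr4 in E4 was lost without the shallowest E0 library (-0.59, unadjusted p = 0.0347). Npy5r gained a difference between E4 and E1 without the second E1 library (1.09) or the second E4 library (0.95), and its difference was 0.47 without the deepest E1 library. No paired analysis was possible because the tables and the recovered libraries carry no replicate number. Depth limits E1 most, and Oprk1 and Oprm1 at all times.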

Other observations

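Neuropeptides are broken down by peptidases, some bound to membranes and some soluble. Of 11 such enzymes tested, 2 were raised and 2 lowered in E1, and 2 raised and 3 lowered in E4, close to the 35.5% and 39.0% called among all genes. Ece1, an endothelin-converting enzyme, was raised at both times, at 1.43 ± 0.18 in E1 and 1.80 ± 0.15 in E4 in the authors' deposited tables. Lnpep, a membrane aminopeptidase, was raised in E1 at 1.46 ± 0.18 (adjusted p = 4.95e-15) and stood in E4 at -0.14 ± 0.16 (adjusted p = 0.543) in the authors' deposited tables. Thop1, a peptidase that cleaves short neuropeptides, was lowered in E1 at -0.43 ± 0.18 and raised in E4 at 0.67 ± 0.11 in the authors' deposited tables.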
